A study of Homo sapiens with 12 samples.

Results

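The metallothioneins measured here were MT2A, MT1E, MT1F and MT3, the 4 genes of this family with enough reads for a test, out of 63925 gene IDs listed for each library. They were matched by symbol to the Ensembl gene IDs, and all 4 were among the 17819 genes tested. The list of the family held 21 genes and pseudogenes, of which 14 had a read in any library. Polyadenylated RNA came from 12 neural cultures of the established human embryonic stem cell lines H9 and H1, grown for 10 weeks under dual SMAD inhibition, which turns pluripotent cells toward neural fates. In each line, 3 sister cultures received 1 µM dexamethasone, a synthetic glucocorticoid, and 3 received the DMSO vehicle, for 6 h. This gave a vehicle and a dexamethasone group in each line, and no label gives a genetic alteration for any of them. All groups shared a neurobasal medium with B-27, ascorbic acid, cyclic-AMP, BDNF and GDNF, after growth of the stem cells on mouse embryonic fibroblast feeders. The commercial B-27 formula is known to contain corticosterone, itself a glucocorticoid, and which version these cultures received is not stated in the labels. Each line stands for 1 cell line and, as far as the labels say, 1 set of sister cultures, so a difference between lines and one between differentiation runs cannot be told apart. The p-values likewise reflect only how far sister cultures spread, which may be partly technical.

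Metallothioneins are small cytosolic proteins rich in cysteine, whose thiol groups hold zinc and copper ions and also bind cadmium. Most are induced when free zinc rises, because the zinc-sensing transcription factor MTF1 then binds metal response elements in their promoters, and human MT2A is also a classic gene induced by glucocorticoids. In brain, metallothionein-1 and -2 proteins are known mainly from astrocytes, while MT3, once called growth inhibitory factor, is the family member most typical of the nervous system and is less responsive to metals.

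The coding sequences of MT2A, MT1E and MT1F are shown because they tell how far these members differ, which matters for assigning reads to them. They come from GENCODE 29 transcripts on GRCh38, run 5′ to 3′, and carry in capitals the bases that differ from MT2A or are inserted against it.
MT2A: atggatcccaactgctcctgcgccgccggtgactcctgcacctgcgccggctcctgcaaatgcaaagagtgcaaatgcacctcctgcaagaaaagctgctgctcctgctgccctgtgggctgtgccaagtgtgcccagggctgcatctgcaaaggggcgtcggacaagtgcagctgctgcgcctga
MT1E: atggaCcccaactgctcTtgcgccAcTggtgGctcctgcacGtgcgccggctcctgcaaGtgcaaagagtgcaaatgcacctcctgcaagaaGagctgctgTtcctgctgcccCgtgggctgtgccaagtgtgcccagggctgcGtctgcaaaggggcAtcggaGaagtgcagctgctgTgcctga
MT1F: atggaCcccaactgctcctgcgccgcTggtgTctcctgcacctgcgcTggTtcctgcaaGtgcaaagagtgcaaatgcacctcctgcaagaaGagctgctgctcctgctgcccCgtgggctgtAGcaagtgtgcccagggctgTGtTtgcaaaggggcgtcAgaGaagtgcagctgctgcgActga
MT2A, MT1E and MT1F each have a coding sequence of 186 bases with 61 codons before the stop, 20 of them (32.8%) for cysteine. MT1E differed from MT2A at 14 bases (92.5% identity) and MT1F at 16 bases (91.4%). The number of cysteine codons was the same in these 3 genes.

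Outside the coding part the transcripts were less alike, and few stretches of 50 or 75 bases were shared exactly. Among all windows of 50 bases along the main transcript, 4.88% of those of MT2A, 5.34% of MT1E and 3.59% of MT1F also occurred in the transcript of another gene. With windows of 75 bases the shares were 0%, 0.794% and 0%. For MT2A these shares are of the 786-base GENCODE transcript. From the RefSeq start that transcript is 401 bases, and its shares were not computed. Matches with a differing base were not counted. MT1X (45.1% of 50-base windows) and MT1G (20.2%) shared far more. How multiply matching reads were treated, and how long reads were, is not given in the sources used, so small counts of MT1E and MT1F in particular are uncertain to the extent that reads of near-identical copies were lost or split.

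All 4 genes lie on the forward strand of chromosome 16 (GRCh38, GENCODE 29), in a cluster of 16 metallothionein genes and pseudogenes that spans 119 kb, 11 of them protein-coding. MT3 (ENSG00000087250.8) occupies 56589074 to 56591088, MT2A (ENSG00000125148.6) 56608199 to 56609497, MT1E (ENSG00000169715.14) 56625475 to 56627112 and MT1F (ENSG00000198417.6) 56657694 to 56660698. The main transcript of each has 3 exons. No other annotated gene overlaps the span of any of the 4. The remaining cluster genes were at the edge of detection: summed over 12 libraries, MT1G had 26 reads, MT1A 12, MT1M 11, MT1L 10, MT1H 6, MT4 2, and MT1X, MT1JP and MT1IP 1 each. MT1B, MT1DP and MT1CP were listed at 0. Off the cluster, the processed pseudogene MT1XP1 had 33 reads in all, at most 7 in a library, and MT1HL1, MT1P1, MT1P3 and MT2P1 were listed at 0. For MT1X, 97.4% of the gene span lies under AC026461.1, another gene annotated on the same strand that was itself listed at 0, and for MT1B 56.5% lies under AC026461.2. The part of these overlaps in the low counts was not tested.

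**Figure D1:**
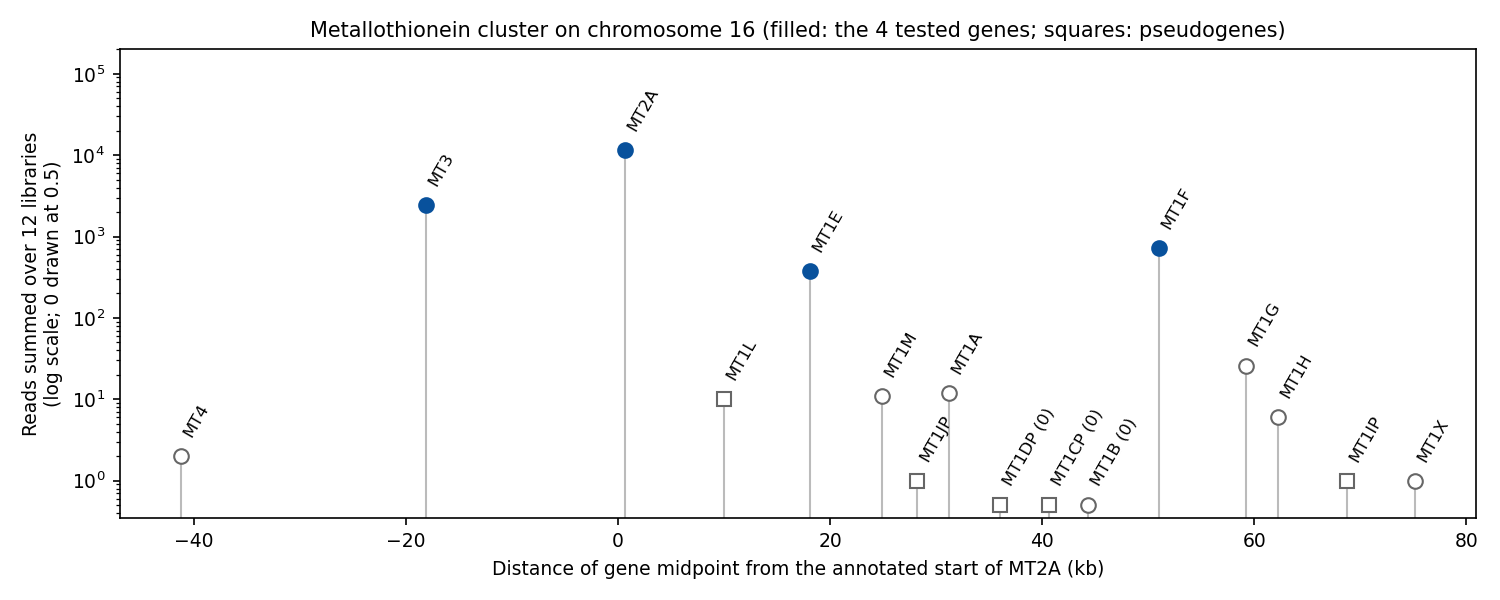
Reads summed over the 12 libraries (vertical, log scale, with 0 drawn at 0.5) for each metallothionein gene of chromosome 16 against the distance of its midpoint from the annotated start of MT2A (horizontal, kb). The 4 tested genes are filled, squares are pseudogenes, and MT2A with 11596 reads stands above MT3 (2461), MT1F (730) and MT1E (381), while every other gene of the cluster had 26 reads or fewer.

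A promoter window from RefSeq (GRCh38.p14) was at hand for MT2A among the 4 genes, and 3 stretches of it are shown because they hold metal response cores. The 250 bases before the RefSeq start, chr16:56608334-56608583 on the forward strand, were searched on both strands for the cores TGCACNC and TGCGCNC, for AGAACA, 1 arm of the glucocorticoid response element, for the full palindrome of that element and for the TATA box TATAAA. Metal response cores are in capitals below, and the stretches are chr16:56608426-56608455, chr16:56608519-56608548 and chr16:56608554-56608583.
Distal pair: ccgggTGCGCCCggcccagTGCGCGCggcc
Proximal site: ggcggggctttTGCACTCgtcccggctctt
Before the start: ctataaacactgcttgccgcgcTGCACTCc
The window held 7 cores with no overlap among them, 5 of the form TGCACNC and 2 of the form TGCGCNC. Among 35116 promoters of the same length, 9.87% held the first form, 16.8% the second, 24.8% at least 1 of either, and 0.0313% held 7 or more. The TATA box stood 29 bases before the start, as a motif present in 10.7% of promoters. AGAACA, present in 12.4% of promoters, was not in this window, and nor was the palindrome (AGAACA followed after 3 bases by its reverse complement), which 0.00285% of promoters held. These are exact matches of letters in 1 window of 250 bases. A glucocorticoid element further upstream, or one with a different base, would not have been found. The search therefore cannot tell whether MT2A has such an element. GENCODE 29 starts its main MT2A transcript 385 bases further upstream, so that it counts this window as transcribed.

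Library depth ranged from 14751168 to 27505804 reads assigned to genes, and the metallothioneins together took 634 to 2224 reads of a library, or 0.00281% to 0.0086%. H9 vehicle culture 3 stood apart. It had the lowest total, and mitochondrially encoded genes took 0.607% of its reads, where the remaining H9 libraries had 4.8% to 5.64% and those of H1 2.91% to 3.23%. Its log2 distance from its sisters, as a root mean square over genes, was 0.853, and in the other 3 groups this distance was 0.268 to 0.309. For the 4 genes, results whose call or sign changes without it are given with and without it, as are some others. The neural label was checked against markers: the summed level of 10 neuron markers was 3830 to 6860 CPM (counts per 1000000 counts), that of 8 neural progenitor markers 5080 to 8620 CPM, that of 6 pluripotency markers 2.97 to 6.73 CPM and that of 8 microglia markers at most 0.649 CPM. The progenitor markers SOX2 and HES5 and the astrocyte marker ALDOC were listed at 0 in every library. Other genes annotated on the same strand cover 100% of the spans of SOX2 and ALDOC.

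MT2A had the most reads of the metallothioneins over the 12 libraries and rose with dexamethasone in both lines. Levels below are CPM scaled by TMM, a correction for differences in library composition. In H9 the vehicle cultures had 20.9, 23.9 and 18.8 CPM and the dexamethasone cultures 68.8, 65.6 and 67.4 CPM. In H1 the vehicle cultures had 21.5, 28.9 and 23.7 CPM and the dexamethasone cultures 47, 47.9 and 49.9 CPM. Every dexamethasone culture lay above every vehicle culture of either line, and the dexamethasone groups of the lines did not overlap either. How many of all tested genes have groups of 3 that separate was not counted. Here and for the genes below, separation only describes the values. Group means were 21.2 ± 2.52 (SD, n = 3) and 67.3 ± 1.62 CPM in H9 and 24.7 ± 3.77 and 48.3 ± 1.44 CPM in H1. In bulk RNA, fewer cells of a type and less RNA per cell cannot be told apart.

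Averaged over the lines, the log2 fold change of MT2A was 1.31 ± 0.09 (SE), a 2.49-fold difference, with an adjusted p of 1.78e-05 in edgeR's quasi-likelihood test (Benjamini-Hochberg over all genes), and it ranked 3 of 17819 genes by p. Within H9 it was 1.66 ± 0.12 (3.17-fold, adjusted p = 0.000106) and within H1 0.96 ± 0.12 (1.95-fold, adjusted p = 0.0124). MT2A was 1 of the 17 genes (0.0954% of those tested) higher over both lines, while 1 gene (0.00561%) was lower. It was 1 of 12 genes (0.0673%) higher in H9 and 1 of 9 (0.0505%) higher in H1. Without H9 vehicle culture 3 the values were 1.27, 1.59 and 0.96, with adjusted p of 1.9e-08, 7.21e-07 and 3.74e-05, in fits where 0.486%, 0.254% and 0.166% of 18098 genes were higher. The call in H1 depended on single libraries: it was lost without H1 vehicle culture 1 or 3 or any of the 3 H1 dexamethasone cultures, where the log2 fold change stayed between 0.87 and 1.09 and adjusted p reached 0.174.

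**Figure D2:**
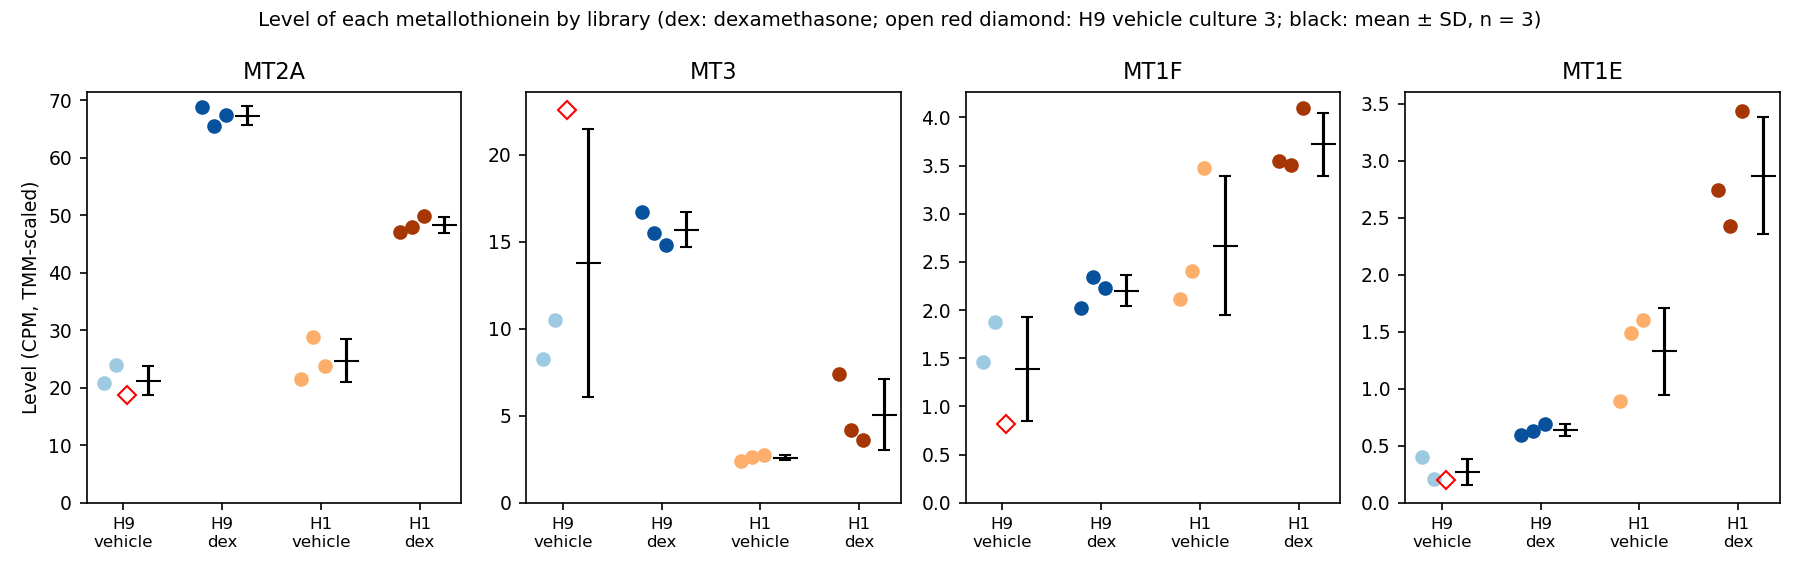
Level of MT2A, MT3, MT1F and MT1E in each of the 12 libraries (vertical, TMM-scaled CPM, from 0, with its own scale per gene) by line and treatment; points are cultures, black marks are mean ± SD over 3 cultures, and the open red diamond is H9 vehicle culture 3. The dexamethasone cultures of MT2A stand clear of the vehicle cultures in both lines, while H9 vehicle culture 3 is the highest library of all for MT3 (22.6 CPM) and the lowest for MT1F (0.816 CPM).

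The size of the MT2A response was larger in H9 than in H1 by 0.70 ± 0.17 on the log2 scale (95% interval 0.33 to 1.06). Its unadjusted p was 0.00135 and its rank 9 among the 17819 genes, but its adjusted p was 0.548, so the difference missed the threshold. No gene passed that test (0%), although 1329 had an unadjusted p under 0.05, and DESeq2 called 0 as well. Without H9 vehicle culture 3 the difference was 0.62 (adjusted p = 0.306). In the vehicle cultures the difference between lines did not pass the test (H9 minus H1, log2 -0.22 ± 0.12, adjusted p = 0.153), and under dexamethasone it was 1.39-fold higher in H9 (log2 0.48 ± 0.12, adjusted p = 0.00595).

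MT1E, a metallothionein-1 gene of the same cluster, had the fewest reads of the 4. Its values were higher in every dexamethasone culture than in any vehicle culture of the same line, without passing the test. In H9 the vehicle cultures had 0.405, 0.209 and 0.204 CPM and the dexamethasone cultures 0.592, 0.626 and 0.691 CPM. In H1 the values were 0.89, 1.49 and 1.6 CPM with vehicle and 2.74, 2.43 and 3.44 CPM with dexamethasone. The treatment groups did not overlap in either line, and the H9 and H1 groups did not overlap under either treatment. Without the share of all genes that separate likewise, this is no evidence of an effect. The log2 fold change over both lines was 1.14 ± 0.23 (2.2-fold, adjusted p = 0.125), close in size to that of MT2A, with 1.16 ± 0.38 in H9 and 1.11 ± 0.25 in H1 (adjusted p = 0.299 and 0.588). Without H9 vehicle culture 3 it was 1.07 over both lines (adjusted p = 0.052), 1.04 in H9 (adjusted p = 0.371) and 1.10 in H1 (adjusted p = 0.0517). The reads behind these values were few: 3 to 18 per library in H9 and 21 to 88 in H1. In H9 vehicle, the mean of 6 reads alone gives a counting error of 40.8%, and the observed coefficient of variation was 42.1%.

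The largest difference in the direction of H1 was that of MT1E, which was 4.65-fold lower in H9 than in H1 with vehicle (log2 -2.22 ± 0.34, adjusted p = 0.000273) and 4.47-fold lower with dexamethasone (-2.16 ± 0.28, adjusted p = 6.8e-05). The group means were 0.273 ± 0.115 and 0.637 ± 0.05 CPM in H9 and 1.33 ± 0.383 and 2.87 ± 0.514 CPM in H1. Its dexamethasone effect differed between the lines by 0.06 with a 95% interval from -0.79 to 0.90 (adjusted p = 0.949). Without H9 vehicle culture 3 that difference was -0.06.

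MT1F, another metallothionein-1 gene, had slightly higher values with dexamethasone in both lines, without passing the test, and was lower in H9 than in H1. The H9 cultures had 1.46, 1.88 and 0.816 CPM with vehicle and 2.02, 2.34 and 2.23 CPM with dexamethasone. The H1 cultures had 2.12, 2.41 and 3.48 CPM with vehicle and 3.55, 3.51 and 4.1 CPM with dexamethasone. Within each line the lowest dexamethasone culture exceeded the highest vehicle culture, in H1 by a narrow margin (3.51 against 3.48 CPM). The share of all genes that separate in this way was not counted. The log2 fold change over both lines was 0.55 ± 0.18 (1.46-fold, adjusted p = 0.569), which did not pass. It was 0.62 in H9 and 0.48 in H1, with a difference of 0.14 (95% interval -0.65 to 0.94, adjusted p = 0.854). With the lowest library, H9 vehicle culture 3, left out, the value in H9 was 0.40 (adjusted p = 0.567), that over both lines 0.44 (adjusted p = 0.26), and the difference between lines turned to -0.08.

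Between lines, MT1F was 1.87-fold lower in H9 with vehicle (log2 -0.90 ± 0.27, adjusted p = 0.0157) and 1.69-fold lower with dexamethasone (-0.76 ± 0.25, adjusted p = 0.0271). Without H9 vehicle culture 3 it was 1.6-fold lower with vehicle (adjusted p = 0.0189) and 1.69-fold lower with dexamethasone (adjusted p = 0.00247). The vehicle call was lost without H1 vehicle culture 3, the highest of its group (adjusted p up to 0.0787 over the alternatives). The call under dexamethasone was lost when any 1 of the 6 dexamethasone cultures was left out (adjusted p up to 0.088). The direction was the same in all of these fits.

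MT3, the metallothionein most typical of nervous tissue, was higher in H9 than in H1, and its dexamethasone effect did not pass the test with all libraries. With vehicle the H9 cultures had 8.27, 10.5 and 22.6 CPM, the last of them in culture 3, and with dexamethasone they had 16.7, 15.5 and 14.8 CPM. The H1 cultures had 2.42, 2.64 and 2.72 CPM with vehicle and 7.38, 4.17 and 3.59 CPM with dexamethasone. Every H9 culture lay above every H1 culture. In H1 the treatment groups did not overlap, and 1 dexamethasone culture stood well above its sisters. In H9 the groups overlapped through culture 3 alone: its sisters, with a mean of 9.38 CPM, lay below all 3 dexamethasone cultures.

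The dexamethasone effect on MT3 depended on single libraries. Over both lines the log2 fold change was 0.58 ± 0.25 (1.5-fold, adjusted p = 0.66) with H9 vehicle culture 3 and 0.85 ± 0.15 (1.8-fold, adjusted p = 0.0115) without it. Within H9 the values were 0.20 ± 0.33 (adjusted p = 0.706) and 0.74 ± 0.20 (adjusted p = 0.16). Within H1 the value was 0.96 ± 0.37 (adjusted p = 1) in the fit of all libraries and 0.96 ± 0.22 (adjusted p = 0.0917) without that culture. All groups share a common estimate of spread per gene in these fits, so a library of H9 also enters the SE and p-values of H1. Without H1 dexamethasone culture 1, at 7.38 CPM, the value in H1 was 0.58 (adjusted p = 1) and that over both lines 0.39 (adjusted p = 0.757). The difference between lines was -0.76 with a 95% interval from -1.83 to 0.32 (adjusted p = 0.555), and -0.22 (adjusted p = 0.834) without the culture.

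MT3 was 5.24-fold higher in H9 than in H1 with vehicle (log2 2.39 ± 0.36, adjusted p = 0.000253) and 3.61-fold higher without H9 vehicle culture 3 (1.85, adjusted p = 4.76e-06). With dexamethasone it was 3.1-fold higher in H9 (1.63 ± 0.34, adjusted p = 0.00226). The background of these line comparisons is broad. With vehicle, 25.7% of all tested genes were higher and 21.2% lower in H9, and with dexamethasone 22.5% and 21.2%. Without H9 vehicle culture 3 the shares were 30.1% and 28.6% with vehicle and 31.9% and 32.8% with dexamethasone. That MT1E, MT1F and MT3 passed with vehicle and all 4 genes with dexamethasone is to be read against these shares.

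**Figure D3:**
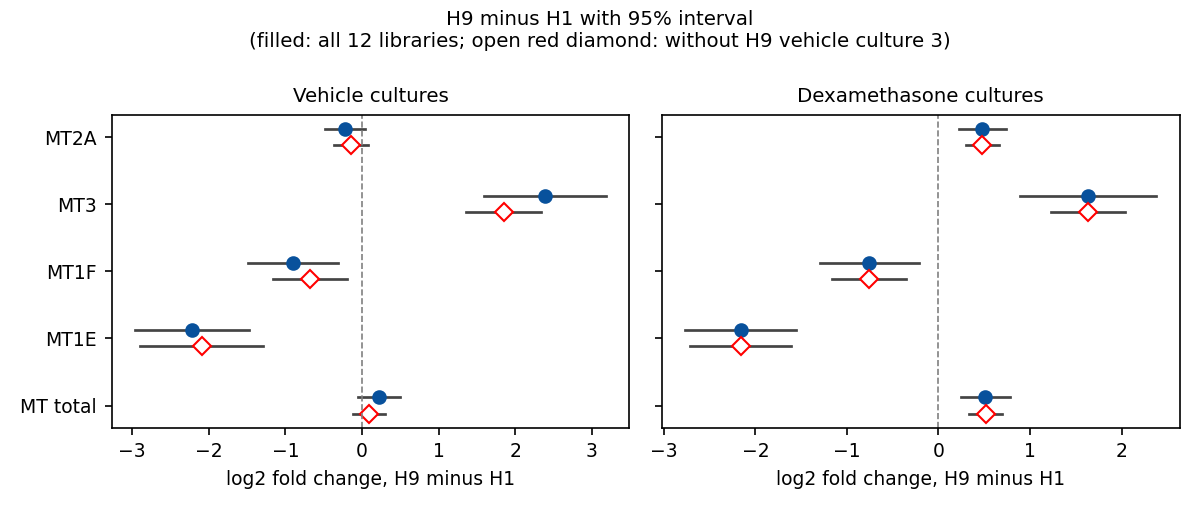
Difference between the lines (horizontal, log2 fold change, H9 minus H1) for each metallothionein and their total, with 95% intervals, in vehicle cultures (left) and dexamethasone cultures (right); filled circles use all 12 libraries and open red diamonds leave out H9 vehicle culture 3. MT3 lies to the right of 0 and MT1F and MT1E to the left under both treatments, while MT2A is at -0.22 with vehicle and 0.48 with dexamethasone.

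The metallothionein total, the summed reads of all family genes taken as 1 feature, does not depend on how the counted reads were divided between members. Any reads that were assigned to no member are missing from the total as well. In H9 it was 31.2, 36.7 and 43.1 CPM with vehicle and 88.6, 84.4 and 85.4 CPM with dexamethasone, and in H1 27.2, 35.8 and 32.1 CPM with vehicle and 61.1, 58.5 and 61.3 CPM with dexamethasone. The treatment groups did not overlap in either line, and the vehicle groups of the lines did overlap. The log2 fold change was 1.07 ± 0.09 over both lines (2.11-fold, adjusted p = 0.000235), 1.22 ± 0.13 in H9 (2.33-fold, adjusted p = 0.00287; 1.34 without H9 vehicle culture 3) and 0.93 ± 0.13 in H1 (1.9-fold, adjusted p = 0.0242). The difference of the total between lines did not pass with vehicle (log2 0.22, adjusted p = 0.172), and the total was 1.43-fold higher in H9 with dexamethasone (0.51 ± 0.12, adjusted p = 0.00566). The difference of the dexamethasone effects was 0.29 (95% interval -0.09 to 0.68, adjusted p = 0.55). Without H9 vehicle culture 3 it was 0.42 (95% interval 0.14 to 0.69, adjusted p = 0.389), which did not pass either. The call in H1 held in 3 of 12 fits with 1 library left out, and adjusted p reached 0.226.

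**Figure D4:**
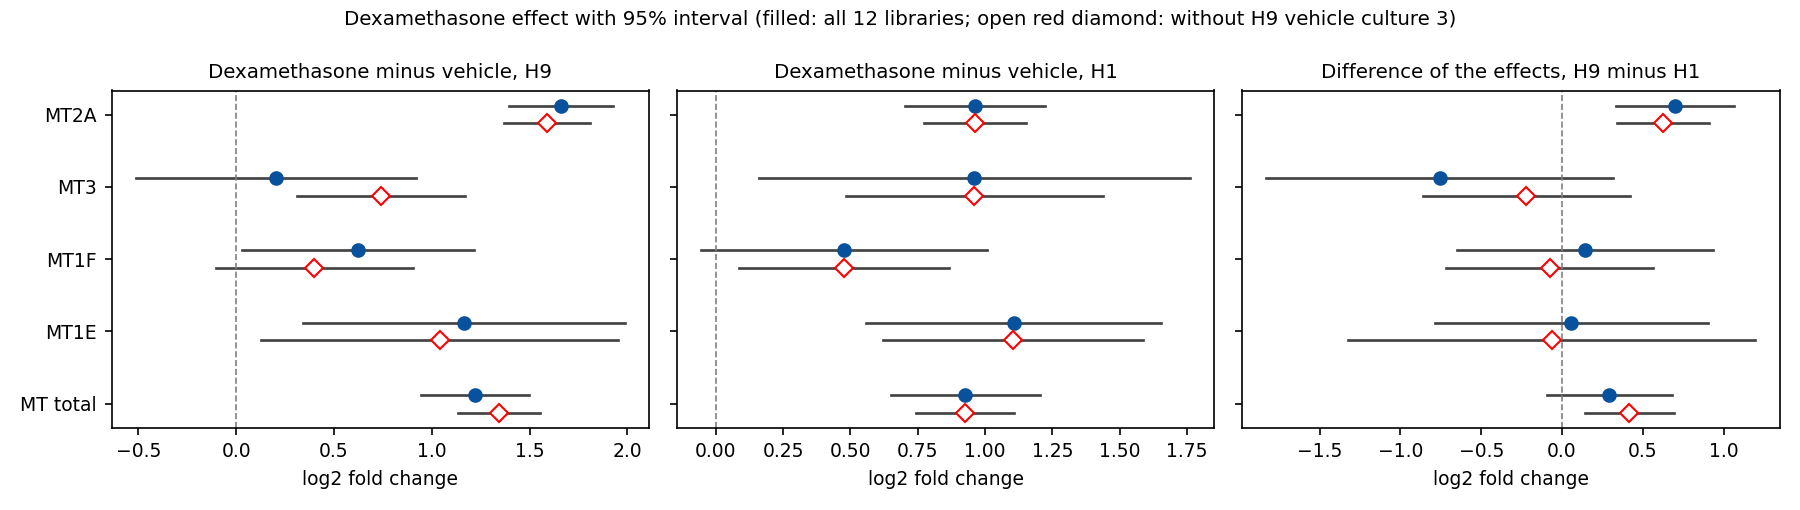
Dexamethasone effect (horizontal, log2 fold change) on each metallothionein and their total, with 95% intervals, in H9 (left), in H1 (middle) and as the difference H9 minus H1 (right); filled circles use all 12 libraries and open red diamonds leave out H9 vehicle culture 3. For MT3 in H9 the estimate moves from 0.20 to 0.74 when that culture is left out, while for MT2A it moves from 1.66 to 1.59.

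The make-up of the family reads is given as a description, with no test. MT2A held a mean of 58.6% of them in H9 vehicle, 78.1% in H9 dexamethasone, 78% in H1 vehicle and 80.1% in H1 dexamethasone. MT3 held 35.8% in H9 vehicle (26.5% to 52.4%, the highest in culture 3), 18.2% in H9 dexamethasone, 8.25% in H1 vehicle and 8.35% in H1 dexamethasone. MT1F held 3.9%, 2.55%, 8.46% and 6.17%, and MT1E 0.78%, 0.74%, 4.14% and 4.75%, in the same order. All other family genes together held at most 1.62% in any library. In H9 vehicle culture 3, MT3 had more reads than MT2A, which was the case in no other library.

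**Figure D5:**
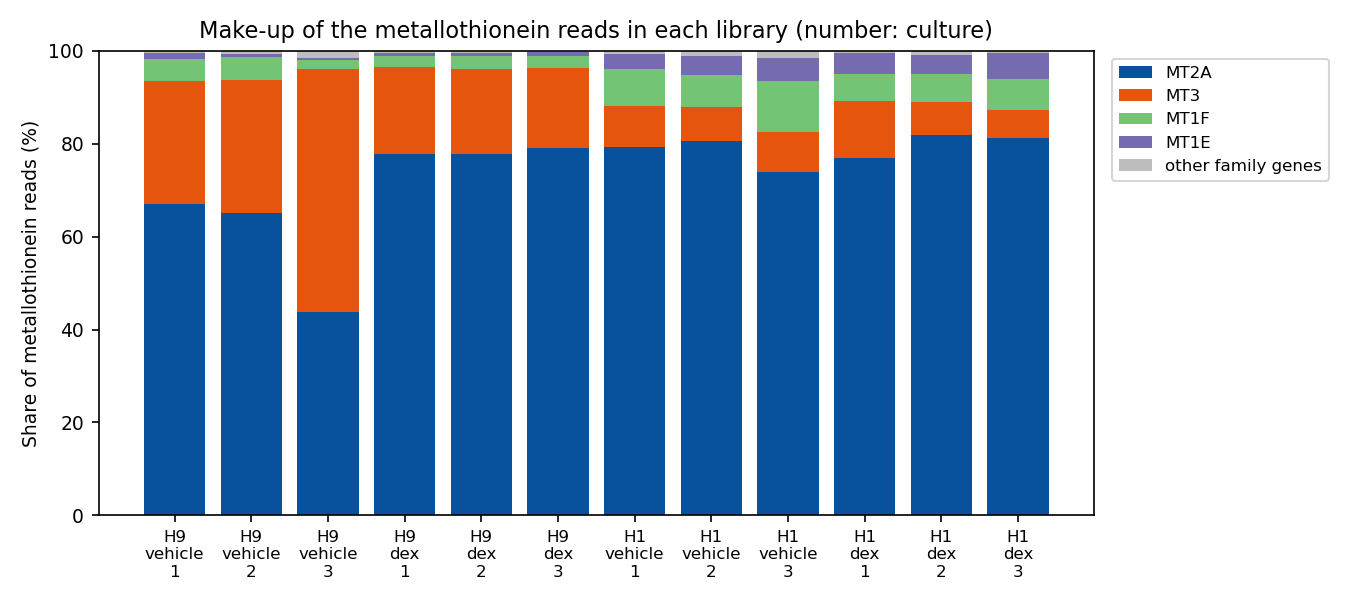
Share of the metallothionein reads (vertical, %) held by MT2A, MT3, MT1F, MT1E and all other family genes in each of the 12 libraries (horizontal, line, treatment and culture number). MT2A holds 74% or more in every library except the 3 of H9 vehicle (43.7% to 67%), where MT3 takes 26.5% to 52.4%.

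The reads, shares and CPM above do not allow for transcript length, so levels of different genes were also compared per kb of the main transcript. On that scale H9 vehicle had 27 CPM per kb of MT2A, 24.2 of MT3, 2.01 of MT1F and 0.387 of MT1E, and H9 dexamethasone had 85.6, 27.6, 3.18 and 0.904. H1 vehicle had 31.5, 4.56, 3.87 and 1.89 CPM per kb, and H1 dexamethasone 61.4, 8.87, 5.39 and 4.08. On this scale the order MT2A, MT3, MT1F, MT1E held for the means of all 4 groups. Per kb of merged exons it held in H9, while in H1 MT3 and MT1F were both at 1.41 with vehicle, and with dexamethasone MT3 was at 2.75, MT1E at 2.73 and MT1F at 1.97. The gap between MT2A and MT3 depends on the transcript start: from the RefSeq start the MT2A transcript is 401 bases instead of 786, and the level in H9 vehicle becomes 52.9 CPM per kb.

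The genes with the profile most like MT2A over the 12 libraries were sought among 14963 tested genes with a mean of at least 1 CPM, by Pearson correlation of log2 CPM. They were FKBP5 (r = 0.965), a co-chaperone that dampens glucocorticoid receptor activity, RASSF4 (0.936), LIFR (0.924), the receptor for leukaemia inhibitory factor, NEDD9 (0.923) and PIK3R1 (0.909), a regulatory subunit of phosphoinositide 3-kinase. For MT3 they were PDE4DIPP2 (0.974), ZHX3 (0.974), STK32B (0.972), STX1A (0.971), a syntaxin of synaptic vesicle release, and NFIC (0.968). Without H9 vehicle culture 3 the values lay between 0.914 and 0.966 for the first 5 and between 0.964 and 0.978 for the second 5. The genes like MT2A had log2 dexamethasone effects of 0.63 to 2.68 in H9 and 0.24 to 2.01 in H1, and those like MT3 differed between the lines with vehicle by 0.58 to 1.67. All these correlations share the same libraries and are descriptions. Among the members themselves, MT1E and MT1F had r = 0.893 over 12 libraries, MT2A and MT1E 0.367, and MT1E and MT3 -0.67. Within the 6 libraries of a line, MT2A and MT1E had r = 0.89 in H9 and 0.933 in H1. MT1E and MT3 had 0.0198 in H9 and 0.706 in H1, so their negative value over 12 libraries was not seen within a line. MT1E and MT1F had 0.725 and 0.905.

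With 0.0954% of all genes called higher and 0.00561% lower over both lines, a list of this size would hold none at that share, and the counts for other metal genes are given as descriptions. None of 10 zinc exporters and vesicle loaders of the SLC30 family and none of 10 tested importers of the SLC39 family (14 listed) passed in either direction over both lines, with median log2 fold changes of 0.08 and 0.09 against -0.01 over all genes. SLC30A10 had the largest positive value of the SLC30 family (0.39 ± 0.14, adjusted p = 0.598). SLC30A1, the plasma membrane zinc exporter, was at 0.12 over both lines (adjusted p = 0.744), with 0.37 in H9 and -0.13 in H1. None of 8 genes of metal-responsive transcription passed, and MTF1 itself had 24.6, 25.5, 29.6 and 29.8 CPM in the vehicle and dexamethasone groups of H9 and then of H1 (log2 0.03 ± 0.06, adjusted p = 0.839). SLC30A1 and MTF1 were named for their known roles, with their values seen. These RNA levels do not measure the activity of MTF1, and its part in the effect on MT2A was not tested.

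Against the same shares over all genes, none passed over both lines among 11 of 12 copper genes, 10 of 11 iron genes, 14 of 15 oxidative stress genes and 7 of 9 heat shock genes that could be tested, and none of these lists gained a call without H9 vehicle culture 3. The median log2 fold changes were -0.03, 0.06, 0.02 and 0.09. Of 14 tested genes of the glucocorticoid receptor and its feedback, 4 rose over both lines and 1 fell, where 0.0954% and 0.00561% of all genes did: FKBP5 (log2 2.35), the transcription factor KLF9 (1.07), the clock gene PER1 (1.07), TSC22D3 (0.53), and the mineralocorticoid receptor NR3C2 (-0.60). MT2A, at 1.31, lay between FKBP5 and the other 3.

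Of the other annotated genes within 500 kb of either end, 12 of 36 could be tested, and none passed over both lines. The nearest before the cluster, BBS2 at 44.8 kb, had a log2 fold change of 0.33 (adjusted p = 0.244). It passed without H9 vehicle culture 3 (0.27, adjusted p = 0.00399), where 0.486% of all genes were higher. AC092140.2 (98.9 kb before, 0.48), NUP93-DT (45.8 kb after, -0.28) and the nucleoporin gene NUP93 (45.9 kb after) did not pass with or without that culture.

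The line comparison of the metal lists is read against the shares over all tested genes, 25.7% higher and 21.2% lower in H9 with vehicle. Of the zinc genes, 5 of 10 SLC30 genes were higher and 3 lower, among them SLC30A8 (log2 2.83), SLC30A3 (1.76), which loads zinc into synaptic vesicles, SLC30A2 (1.51) and SLC30A6 (-0.89). Of 10 SLC39 genes, 1 was higher and 4 were lower: SLC39A12 (3.07), a zinc importer of brain, was higher, and SLC39A1 (-0.67), SLC39A10 (-0.54) and SLC39A13 (-0.51) were among the lower. Of the 8 genes of metal-responsive transcription, 1 was higher (USF2, 0.93) and 5 were lower, with SP1 (-1.13), BACH1 (-0.49) and MTF2 (-0.46) as the largest, and MTF1 differed by -0.26 (adjusted p = 0.0289). Of 11 copper genes 2 were higher and 2 lower, of 10 iron genes 3 and 3, and of 14 oxidative stress genes 5 and 1. Whether these shares differ from the 25.7% and 21.2% over all genes was not tested. These counts without H9 vehicle culture 3 were 4 and 3, 6 and 3, and 7 and 2, where 30.1% of all genes were higher and 28.6% lower. The median log2 differences of these lists ran from -0.40 (SLC39) to 0.20 (iron), against 0.03 over all genes.

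Markers of several cell types were also called between the lines, again against 25.7% of all genes higher and 21.2% lower with vehicle. Of 12 tested astrocyte markers, 6 were higher in H9 with vehicle and 1, SOX9 (log2 -0.46), was lower. Only these 6 of the 12 lay above 0. The higher ones were led by ALDH1L1 (log2 4.15), AGT (3.06), the water channel AQP4 (2.32) and SPARCL1 (2.00). The summed level of the 13 listed, of which ALDOC was at 0, was 2010 to 3020 CPM in H9 vehicle, 2910 to 3470 in H9 dexamethasone, 1660 to 1770 in H1 vehicle and 1540 to 1650 in H1 dexamethasone. In H9 vehicle culture 3 it was the lowest of the H9 libraries. All 8 markers of proliferating cells were lower in H9 with vehicle, with summed levels of 65.4 to 92 CPM in H9 vehicle against 446 to 513 in H1 vehicle, and so were 4 of 8 mesenchymal markers, while 1 was higher (233 to 381 against 1820 to 3270 CPM). Of 10 neuron markers, 5 were higher and 1 lower in H9 (5300 to 6200 against 3950 to 4000 CPM). Of 7 tested choroid plexus markers, 3 were higher in H9 (TTR, log2 2.80, FOLR1, 2.56, and CLIC6, 2.41) and none lower. Only these 3 of the 7 lay above 0, and the median log2 difference was -0.02. The summed levels were 46.7 to 177 against 59.7 to 71.4 CPM. The part of these shifts in the line differences of MT3, MT1E and MT1F was not tested.

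With dexamethasone, none of the 12 astrocyte markers passed over both lines (10 above 0, median log2 0.18), and none of the 8 proliferation markers (8 above 0, median 0.26). The ranges of the summed astrocyte level given above overlapped between treatments in H9 and did not overlap in H1, where it was lower with dexamethasone. That sum is weighted toward the most abundant markers. Marker by marker, 5 of the 12 lay above 0 in H1 (median log2 -0.03) and all 12 in H9 (median 0.29). None of the mesenchymal, neuron, progenitor or choroid plexus markers passed. In the fit without H9 vehicle culture 3, 0.486% of all genes were higher over both lines and 0.287% lower. There, ALDH1L1 (astrocyte, log2 1.24, adjusted p = 0.000145), NEFL (neuron, 0.25) and AQP1 (choroid plexus, 0.80) rose. S100B (astrocyte, -0.26), PDGFRB (mesenchymal, -0.34) and KCNJ13 (choroid plexus, -0.94) fell. The part of these shifts in the effect on MT2A was not tested.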

How the data were processed

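Members and gene lists were chosen with earlier results of these data known. The authors deposited raw read counts per gene, 1 file per library. STAR 2.5.3a, HTSeq, hg38 and GRCh38.p10 are the tools and builds named in the submitters' processing notes. The strand setting, the annotation release and the treatment of multiply matching reads are not given in the sources used, so reads of overlapping or antisense genes cannot be told apart. Of 63925 IDs, the gene name table named 57577 and GENCODE 29 a further 507, and 33131 had a read.

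Genes kept by filterByExpr (17819) were tested in edgeR 4.0.16 (quasi-likelihood F-test, TMM, 1 mean per group over 12 libraries, 8 residual degrees of freedom, Benjamini-Hochberg, threshold 0.05, R 4.3.3). SE is the log2 fold change over the square root of F. Likeness used log2 CPM with a prior count of 2. The test was checked on simulated data. Sister cultures differed by more than sampling noise in every pair (chi-square per gene of 4.08 or more). From each list at most 4 genes are named, those past the threshold with the largest change, or else by smallest p. SOX9 is named besides, as the 1 astrocyte marker lower in H9 with vehicle. Genes next to the cluster are named as the nearest 2 on each side.

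Alternatives were DESeq2 1.42.0, limma-voom (limma 3.58.1), RLE size factors, plain totals, 2 other filters, library sizes without mitochondrial and the 20 most abundant genes, single-line fits, culture number as a replicate block and each library left out. The block without H9 vehicle culture 3, and group levels without it, were added after seeing the data. Counting intervals are not given for single libraries, since the replicate spread was used. The coding sequence of MT3 is not reported here. Sequences came from GENCODE 29 and RefSeq and were read with Biopython 1.88 in Python 3.11.15, and figures were drawn with matplotlib 3.10.9.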

Additional observations from a re-analysis of the deposited data

How the results depend on the processing

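MT2A kept its direction and its call over both lines in all 21 alternatives (log2 1.27 to 1.38) and in H9 in all 22 (1.59 to 1.76). MT1E over both lines passed with DESeq2 alone (1.16, adjusted p = 0.013), and within H1 only with the replicate block without H9 vehicle culture 3 (adjusted p = 0.0218). MT3 over both lines passed only in the 2 fits without that culture (0.85 and 0.88). Of the values that changed sign, MT3 in H9 ran from -0.0142 (without H9 vehicle culture 1) to 0.74 with single libraries left out, the line difference of the effect on MT1E from -0.14 to 0.52 and that on MT1F from -0.0895 to 0.42. With the replicate block and without H9 vehicle culture 3 the last pair were -0.21 and -0.20. None of these passed the test. The metallothionein total lost its call in H9 in the fit of H9 alone (1.24, adjusted p = 0.257), and in H1 with the replicate block (0.93, adjusted p = 0.073) and in 9 leave-out fits (0.83 to 1.03).

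Counts of called genes, 18 over both lines, 12 in H9 and 9 in H1, moved to 112, 131 and 25 with DESeq2, to 30 over both lines and 24 in H9 without a filter, to 2 in H9 alone and to 50 in H1 alone. With single libraries left out they ran from 10 to 140, 6 to 53 and 3 to 59, the highest each time without H9 vehicle culture 3, and the 7777 genes that differed between lines with dexamethasone ran from 6106 to 11697. The causes of these shifts were not tested.

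Culture numbers were not taken to pair the samples, since not every correlation was over 0.1: those of same-numbered cultures were -0.0145, 0.113 and 0.0115 in H9 and 0.179, 0.0996 and 0.0498 in H1, and each vehicle culture correlated best with its own number in H1, but in H9 only culture 2 did. This is a hint from the data, not the design. As a replicate block they gave 15, 9 and 5 called genes, and without H9 vehicle culture 3, a fit chosen after seeing the data, 184, 62 and 141, with 11908 between lines under dexamethasone. MT1E had the fewest reads of the members, at a mean of 6 in H9 vehicle, and its 2.24-fold difference in H9 missed the threshold. Its 2.15-fold difference in H1, with a mean of 33.3 reads in vehicle, missed it too. The part of depth in this was not tested.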
